A study of Rattus norvegicus with 14 samples.

Results

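The genes of oxidative phosphorylation were followed in the dentate gyrus of rats killed after a place-learning task, complex by complex. Members were chosen by gene symbol: every probe set whose single platform symbol begins with Nduf, Uqcr, Atp5, Cox4, Cox5, Cox6, Cox7 or Cox8, or is Sdha, Sdhb, Sdhc, Sdhd, Cyc1 or Cycs. The rule found 85 genes on 90 probe sets, of 15866 probe sets on the array that are not controls. Cycs, cytochrome c, has no probe set with a single symbol, and 9 further probe sets that share their symbol with another gene fell outside the rule. The symbols were grouped as 35 genes of complex I, 5 of its assembly factors (Ndufaf), 4 of complex II, 8 of complex III, 17 of complex IV and 16 of ATP synthase (complex V). Ndufa4 was placed with complex IV, where its protein is now assigned. By symbol alone, Ndufa4l2 was counted with complex I, and Cox6c-ps1, a pseudogene by its symbol, with complex IV.

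All 14 animals were male Long-Evans rats aged 3 to 4 months, with no genetic modification or drug named in the labels. All had been trained in a standard water maze 2 to 3 weeks before, and all then swam 1 session of 8 trials at intervals of 8 minutes in a new pool, followed 1 hour later by a probe trial of 90 seconds and by removal of the brain. The 7 learning rats had a fixed visible platform among cues, and the 7 control rats had a platform that was moved, without informative cues. Dentate gyrus was dissected from each animal and its total RNA was put on 1 Affymetrix RAE230A array, so n was 7 rats per group throughout, and the number of arrays limits the precision. The comparison asks which genes differ between animals that could learn a fixed place and animals given as many trials without one.

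Oxidative phosphorylation takes place in the inner mitochondrial membrane. Complex I takes electrons from NADH and complex II takes them from succinate, a step it shares with the citric acid cycle. Complex III passes these electrons from ubiquinone to cytochrome c, and complex IV passes them on to oxygen. Complexes I, III and IV pump protons, and ATP synthase uses their return to make ATP, which in neurons mainly feeds the ion pumps that restore gradients after electrical activity. A small core of subunits is made inside mitochondria, while the genes followed here are nuclear and were measured as messenger RNA only. Nuclear respiratory factors and YY1 are textbook activators of these nuclear genes.

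The learning rats and the control rats did not differ in any oxidative phosphorylation gene past the threshold. Values are log2 expression values, on which 1 unit is a doubling, and differences are learning minus control from limma's moderated test, with p adjusted by Benjamini-Hochberg over the 9387 probe sets whose mean over all arrays was 4 or more. Of the members, 81 probe sets of 78 genes reached that mean. At an adjusted p under 0.05, 0 of these 81 were called, against 0 of 9387 (0%) over the whole array. At an unadjusted p under 0.05, 4 of 81 (4.94%) passed, against 13.1% of all tested probe sets, so the members' share was below the background; with no minimum mean it was not, at 9 of 90 member probe sets (10%) against 9.30% of all. All 4 were lower in learning rats, against a background of 6.67% for lower values, while 0 were higher, against 6.43%. At an unadjusted p under 0.01 the members had 1 probe set (1.23%), against 3.93%. In 0 members were the 7 values of one group entirely separate from those of the other, against 0.405% of all tested probe sets.

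The members' differences were small as well as uncalled. By gene, 38 lay above control and 40 below it in learning rats, at a median difference of -0.00048 log2 units and a range from -0.34 to 0.16. The median size of a difference was 0.05 log2 units among the genes, against 0.08 over all tested probe sets, and the median pooled SD between rats was 0.12 against 0.16. The 95% interval of the difference lay within 1.2-fold in either direction for 60 of 81 member probe sets (74.1%), against 48.6% of all tested. Over the members, the outer bound of that interval had a median of 0.20 log2 units (1.15-fold) and reached at most 0.57 (1.48-fold), in Ndufs8. The background was not matched for signal level. Whether the smaller differences and SDs are particular to these genes was therefore not tested.

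**Figure D1:**
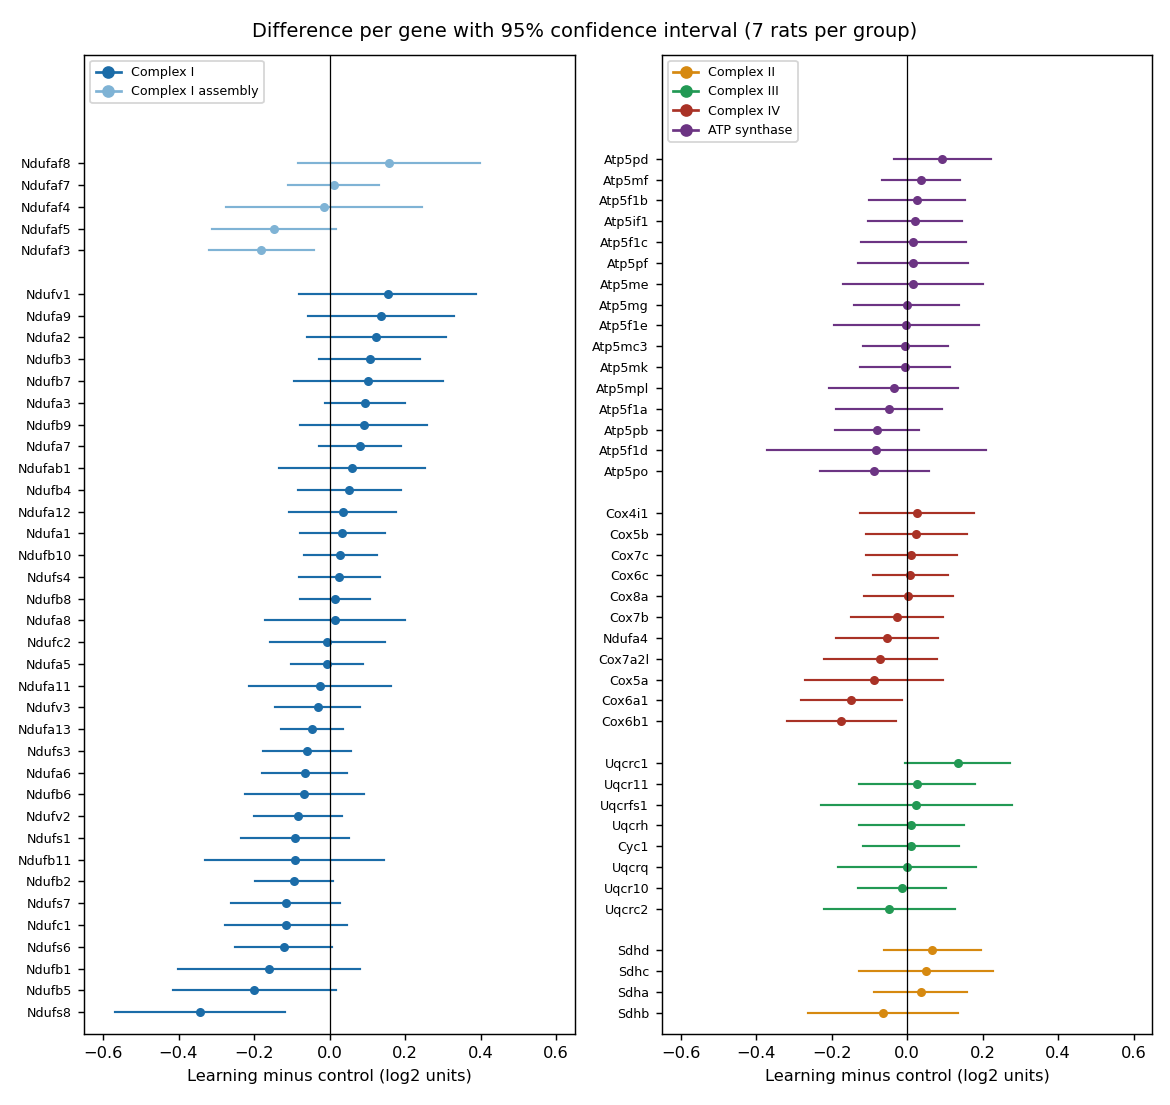
Difference of each tested gene (dot, learning minus control in log2 units, horizontal axis) with its 95% confidence interval (line), 7 rats per group, coloured by complex. The intervals of Ndufs8, Ndufaf3, Cox6b1 and Cox6a1 lie wholly below 0, none lies wholly above it, and no gene passed an adjusted p under 0.05 in limma's test.

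Of 5 granule cell markers on the array, 4 reached a mean of 4 and Tdo2 did not, at 2.71 in both groups. Prox1, the transcription factor that defines dentate granule cells, stood at 10.26 ± 0.25 (SD) in control and 10.33 ± 0.17 in learning rats, and Calb1, calbindin, at 10.82 ± 0.08 and 10.79 ± 0.10. Rasl10a stood at 8.94 and 8.93, and Dsp, desmoplakin, at 6.37 ± 0.30 and 6.81 ± 0.31 (adjusted p = 0.251, limma). Array medians ran from 5.09 to 5.12 and correlations between arrays from 0.995 to 0.998. Markers of other tissue included Ttr, transthyretin, made mainly by the choroid plexus in brain, which stood at 7.47 ± 1.07 in control and 5.68 ± 0.14 in learning rats (adjusted p = 0.153, limma). Of 7 choroid plexus genes on the array only Ttr and Enpp2 reached a mean of 4, and Enpp2 differed by -0.04 ± 0.08 (SE of the difference). The mean of both ranged from 6.67 to 7.98 in control and from 6.34 to 6.61 in learning rats, while Kl, Folr1, Aqp1, Cldn2 and Kcnj13 were all below 4 in both groups. The mean of the 8 tested meningeal markers ranged from 5.09 to 7.93 and from 4.88 to 8.03, and that of the 5 tested CA1 markers from 6.89 to 7.92 and from 7.39 to 7.79. The part of the Ttr level in the members' differences was not tested; with the meningeal or the CA1 marker level as a covariate, added after the values were seen, 0 members were called, and 4 (4.94%, against 11.9% of all tested) and 3 (3.70%, against 10.2%) had an unadjusted p under 0.05 in limma. In bulk tissue, fewer cells of a type and less RNA per cell cannot be told apart.

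What the members share in sequence was read from the RefSeq windows of the GRCr8 assembly, which run from 250 bases before to 50 bases after each gene's start and were there for 76 of the 85 genes. GCGCATGCG, a core of nuclear respiratory factor 1 sites, occurred on either strand in 7 of these windows (9.21%), against 1.52% of all 33469 windows and 1.93% of the 21851 protein-coding ones. CCGGAAG, the ETS-type core bound by nuclear respiratory factor 2 (GABP), occurred in 21 (27.6%), against 8.75% and 10.7%. AAGATGGCG, a YY1 core, occurred in 11 (14.5%), against 1.73% and 2.07%. Only in Atp5pf did it lie within the 250 bases before the start, at 111 bases. In the other genes it reached into the 50 bases after the start. The GABP and YY1 strings could overlap by sharing their AAG, which they did in 0 of the 76 windows; 4 windows held both. At least 1 of the strings was in 32 of the windows (42.1%), against 11.3% and 13.8%. A match describes the letters only and is no measured binding.

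The 250 bases before the start are shown for the gene with the largest difference in learning rats, for the complex III gene with the smallest p, and for an assembly factor that carries the nuclear respiratory factor 1 letters close to its start. Capitals mark the letters searched, which each of the genes shown carries. The windows of Ndufaf3 and Cox6b1, which like Ndufs8 had an unadjusted p under 0.05 in limma, hold none of them. Ndufs8 lies at chr1:210573699-210573948 on the minus strand and carries the reverse complement of the GABP core, 12 bases before the start. Uqcrc1 lies at chr8:118467973-118468222 on the plus strand and carries the nuclear respiratory factor 1 letters 39 bases before the start. Its window also holds the YY1 letters, outside the 250 bases shown. Ndufaf5 lies at chr3:147961362-147961611 on the plus strand and carries the same letters on both strands, overlapping by all but 1 base, 15 bases before the start.
Ndufs8: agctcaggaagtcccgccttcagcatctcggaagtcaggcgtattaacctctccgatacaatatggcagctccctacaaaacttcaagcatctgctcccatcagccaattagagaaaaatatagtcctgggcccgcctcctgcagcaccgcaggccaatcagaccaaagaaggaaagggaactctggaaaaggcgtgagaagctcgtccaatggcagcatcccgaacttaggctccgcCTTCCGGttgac
Uqcrc1: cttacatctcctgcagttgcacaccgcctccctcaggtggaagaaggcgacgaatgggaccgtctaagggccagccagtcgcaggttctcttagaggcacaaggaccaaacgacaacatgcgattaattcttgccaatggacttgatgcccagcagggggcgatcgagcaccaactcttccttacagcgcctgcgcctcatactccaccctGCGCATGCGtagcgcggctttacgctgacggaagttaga
Ndufaf5: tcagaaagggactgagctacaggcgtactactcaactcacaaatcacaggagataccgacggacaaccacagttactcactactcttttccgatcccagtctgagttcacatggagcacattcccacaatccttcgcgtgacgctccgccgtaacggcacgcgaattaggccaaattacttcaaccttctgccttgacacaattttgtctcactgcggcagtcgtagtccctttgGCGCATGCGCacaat
The differences between the groups are set beside these letters as a description, with no test. The 32 tested genes with any of them had a median difference of 0.0012 log2 units, 16 higher and 16 lower in learning rats, and the 39 without had a median of -0.0068, 16 higher and 23 lower. Of the 7 tested genes with the nuclear respiratory factor 1 letters 5 were lower, and of the 11 with the YY1 letters 8 were higher, with medians of -0.014 and 0.026. Of the 21 with the GABP letters 11 were higher and 10 lower, with a median of 0.0028. Among genes without each string, 30 were higher and 34 lower for nuclear respiratory factor 1, 21 and 29 for GABP, and 24 and 36 for YY1.

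Complex I, the entry point for electrons from NADH, held the largest difference. Of its 35 genes 34 were tested, with 16 higher and 18 lower, a median of -0.0066 log2 units and a range of -0.34 to 0.15. The interval lay within 1.2-fold for 25 of the 34. At an unadjusted p under 0.05, 1 gene was lower and 0 were higher, against 6.67% and 6.43% of all tested probe sets. Of the 34, 0 were called.

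Ndufs8, an iron-sulphur subunit of the arm that leads electrons to ubiquinone, ranged from 8.01 to 8.49 with a median of 8.34 in control rats, and from 7.62 to 8.21 with a median of 8.04 in learning rats. All 7 learning rats lay below the control median and 3 below the lowest control, but control rats 1, 3 and 6 fell among the learning values, so the groups overlapped. The difference was -0.34 ± 0.11 (SE), or 1.27-fold lower, with an interval from -0.57 to -0.12. Its unadjusted p was 0.00534 and its adjusted p 0.233 in limma, which does not pass. Over the alternatives the difference ran from -0.39 to -0.26, with an adjusted p of 0.167 at the lowest. The promoter printed above carries the GABP letters.

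The other core subunits, which bind NADH or carry the iron-sulphur chain, were named after their values were seen. Of the 6 core subunits measured, 5 were lower, with a median of -0.09 log2 units, and none was called. Ndufs7, which holds the last cluster before ubiquinone, differed by -0.12 ± 0.07, Ndufs1, the largest iron-sulphur subunit, by -0.09 ± 0.07, and Ndufv2 by -0.08 ± 0.05. Ndufs3, a structural core subunit, differed by -0.06 ± 0.05. Ndufv1, the subunit that binds NADH and flavin, went the other way: it ranged from 9.99 to 10.45 with a median of 10.12 in control and from 9.93 to 10.63 with a median of 10.27 in learning rats, a difference of 0.15 ± 0.11 (adjusted p = 0.558). The 28 accessory subunits were split 15 higher to 13 lower, with a median of 0.015.

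Among the accessory subunits the smallest p values belonged to Ndufs6, Ndufb5 and Ndufb2. Ndufb5, in the membrane arm, ranged from 10.57 to 11.08 with a median of 10.96 in control and from 10.43 to 10.97 with a median of 10.69 in learning rats. Ndufs6, a zinc-binding subunit at the NADH arm, ranged from 10.93 to 11.21 with a median of 11.06, against 10.75 to 11.09 with a median of 10.96. Both overlapped widely, with 6 of 7 learning rats below the control median for each gene. The differences were -0.20 ± 0.10 for Ndufb5 and -0.12 ± 0.06 for Ndufs6 (adjusted p = 0.418 and 0.401). Ndufb2, also of the membrane arm, differed by less, -0.09 ± 0.05, but all 7 learning rats lay below its control median (adjusted p = 0.425). Ndufa1 and Ndufb9, the complex I genes of highest signal, differed by 0.03 ± 0.05 and 0.09 ± 0.08. Ndufv3 had a pair of tested probe sets, which differed by -0.03 and 0.0004.

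The complex I assembly factors build the enzyme but are not part of it. All 5 were tested, 2 higher and 3 lower, with a median of -0.014 log2 units. Ndufaf3, which acts early with Ndufaf4, ranged from 8.47 to 8.72 with a median of 8.53 in control and from 8.11 to 8.51 with a median of 8.42 in learning rats. All 7 learning rats lay below the control median, and 5 controls lay above every learning rat. The difference was -0.18 ± 0.07 (limma, unadjusted p = 0.0140, adjusted p = 0.272). Learning rat 3 was far below the other learning rats, and without single arrays the difference ran from -0.20 to -0.13. Ndufaf5, which hydroxylates a residue of Ndufs7 and carries the nuclear respiratory factor 1 letters printed above, differed by -0.15 ± 0.08, while Ndufaf8, its stabilising partner, differed by 0.16 ± 0.11 (adjusted p = 0.437 and 0.560). Ndufaf4 and the methyltransferase Ndufaf7 differed by -0.014 ± 0.12 and 0.011 ± 0.06.

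**Figure D2:**
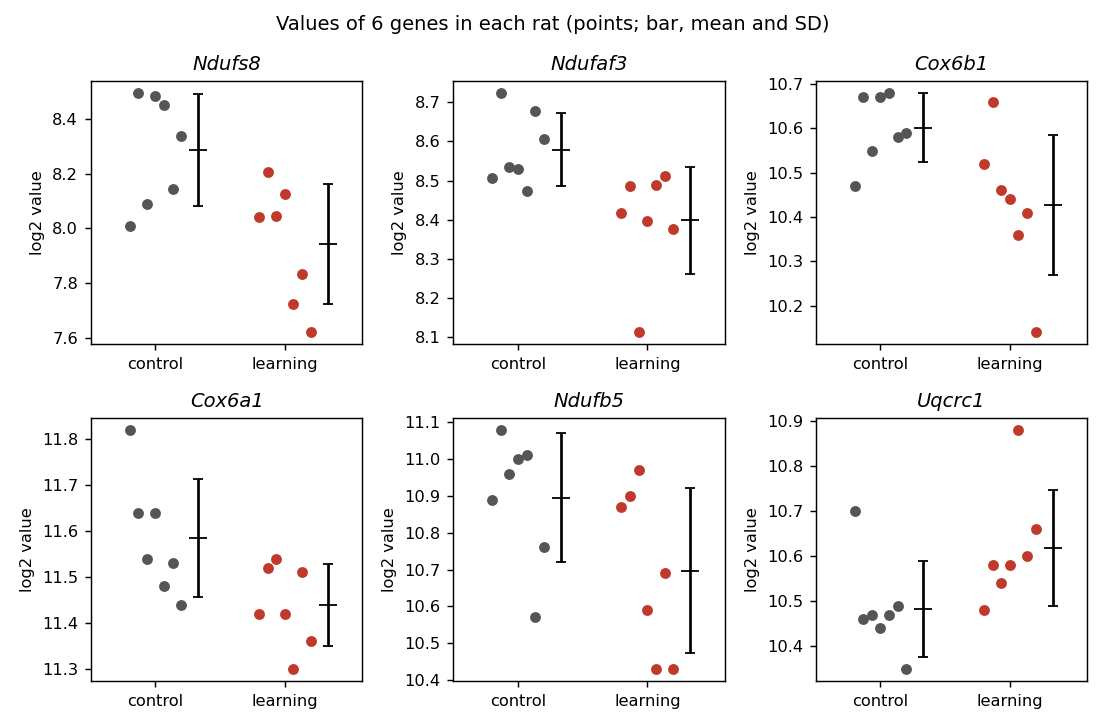
Values of Ndufs8, Ndufaf3, Cox6b1, Cox6a1, Ndufb5 and Uqcrc1 in each of 7 control and 7 learning rats (points, log2 value; vertical axes differ and do not start at 0), with the mean and SD of each group beside them. Every gene has control and learning rats at the same level, and the learning mean is lower in 5 of the 6 genes and higher in Uqcrc1.

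Complex II, the succinate dehydrogenase, had all 4 of its genes tested, 3 higher and 1 lower, with a median of 0.04 log2 units. Sdha, the flavin subunit, ranged from 10.41 to 10.67 with a median of 10.47 in control and from 10.46 to 10.70 with a median of 10.54 in learning rats, a difference of 0.04 ± 0.06. Sdhb, the iron-sulphur subunit, ranged from 10.20 to 10.73 with a median of 10.63, against 10.25 to 10.67 with a median of 10.49, a difference of -0.06 ± 0.09. The groups covered nearly the same span in both. The membrane anchors were slightly higher in learning rats: Sdhc by 0.05 ± 0.08, and Sdhd by 0.07 ± 0.06 and 0.06 ± 0.12 in its probe sets. The lowest adjusted p in the complex was 0.640.

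Complex III, which hands electrons to cytochrome c, had all 8 genes tested, 5 higher and 3 lower, with a median of 0.011 log2 units and 6 intervals within 1.2-fold. Uqcrc1, a core protein of the matrix side, ranged from 10.35 to 10.70 with a median of 10.47 in control and from 10.48 to 10.88 with a median of 10.58 in learning rats. All 7 learning rats lay above the control median, while control rat 1 at 10.70 lay above all but 1 of them. The difference was 0.13 ± 0.07, with an interval from -0.0052 to 0.27 (limma, unadjusted p = 0.0581, adjusted p = 0.397). Uqcrc2, the other core protein, differed by -0.05 ± 0.08, and by -0.0021 without control rat 1. The electron-carrying subunits differed little: Cyc1, cytochrome c1, by 0.010 ± 0.06 and Uqcrfs1, the Rieske iron-sulphur protein, by 0.02 ± 0.12. Uqcrfs1 was among the most variable members, ranging from 9.20 to 9.94 in control and from 9.33 to 9.74 in learning rats. The small subunits Uqcr10, Uqcr11 and Uqcrh differed by -0.012, 0.03 and 0.011.

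Complex IV, cytochrome c oxidase, had 11 of its 17 genes tested, 5 higher and 6 lower, with a median of -0.03 log2 units. At an unadjusted p under 0.05, 2 of the 11, Cox6b1 and Cox6a1, were lower and 0 were higher. Over all tested probe sets 6.67% were lower and 6.43% higher at that p. Cox6b1, on the side that faces cytochrome c, ranged from 10.47 to 10.68 with a median of 10.59 in control and from 10.14 to 10.66 with a median of 10.44 in learning rats. Cox6a1, the isoform found outside heart and muscle, ranged from 11.44 to 11.82 with a median of 11.54 against 11.30 to 11.54 with a median of 11.42. For Cox6b1 5 of 7 learning rats lay below every control, and for Cox6a1 4 did, yet the groups overlapped in both genes. The differences were -0.17 ± 0.07 and -0.15 ± 0.06, 1.13-fold and 1.11-fold lower, with adjusted p of 0.312 and 0.343 in limma. The remaining tested subunits were closer: Cox4i1, which makes the ATP-sensing subunit, by 0.03 ± 0.07, Cox5a by -0.09 ± 0.09, Cox6c by 0.009 ± 0.05 and Cox8a by 0.0028 ± 0.06. Control rat 2 was far above the other controls for Cox5a, and without it that difference was -0.011. The Cox5a probe set had a mean of 5.82, against 10.51 for Cox6b1, the next lowest tested gene of the complex. Cox7a2l, a factor that joins complexes III and IV, differed by -0.07 ± 0.07.

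The other 6 genes of complex IV were near background: Cox4i2, Cox6a2, Cox6b2, Cox6c-ps1, Cox7a1 and Cox8b, most of them isoforms known from lung, muscle, heart or testis. With Ndufa4l2 and further probe sets of Atp5if1 and Atp5me they made up the 9 untested probe sets, with means from 2.01 to 3.50. Without the minimum, their largest difference was 0.04 log2 units in size and their lowest unadjusted p 0.110 in limma. Values that low carry little information on expression, and a gene near background may still be made in a few cells.

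ATP synthase had all 16 genes tested, 7 higher and 9 lower, with a median of -0.0013 log2 units and a range from -0.09 to 0.09. The interval lay within 1.2-fold for 15 of 16, all but Atp5f1d. Atp5f1b, the catalytic beta subunit, differed by 0.03 ± 0.06, and Atp5f1a, the alpha subunit, by -0.05 ± 0.07. The peripheral stalk genes differed by 0.09 ± 0.06 in Atp5pd, -0.08 ± 0.05 in Atp5pb, -0.09 ± 0.07 in Atp5po and 0.016 ± 0.07 in Atp5pf, with adjusted p of 0.524 to 0.934. The membrane genes Atp5mc3 (c ring), Atp5mf and Atp5mk differed by -0.0046, 0.04 and -0.0053. Atp5if1, the inhibitor of the enzyme's reverse reaction, differed by 0.02 in a probe set with a mean of 10.71. It differed by -0.08 in a weak probe set, at a mean of 4.59, where learning rat 3 was lowest at 4.13. Atp5f1d, the delta subunit, was the most variable of the complex, from 9.86 to 10.52 in control and from 9.56 to 10.34 in learning rats, a difference of -0.08 ± 0.14 that came to -0.0069 without learning rat 3.

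The spread between rats was also described per gene for ATP synthase. The SD was larger in learning than in control rats for 16 of 16 genes. Over all tested probe sets this held for 54.5%, and over the member probe sets, these 16 genes included, for 67.9%. The median SD of the 16 genes was 0.08 log2 units in control and 0.14 in learning rats. Atp5f1b ranged from 12.28 to 12.40 with a median of 12.32 in control, and from 12.20 to 12.65 with a median of 12.34 in learning rats, so that its SD was 0.041 against 0.141. Atp5f1a had an SD of 0.062 against 0.156, with learning rats from 11.37 to 11.78 around controls from 11.62 to 11.79. Other genes differed far less, with an SD of 0.092 against 0.098 in Atp5mk and 0.081 against 0.087 in Atp5mc3. Large gaps were also seen outside the complex, as in Ndufa4 with 0.045 against 0.153. When each array was left out in turn the count was 14 to 16 of 16, with 14 without control rat 6 and without learning rat 3. The genes come from the same 14 arrays and are not independent, the pattern was noticed after the values were seen, and it was given no test.

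**Figure D3:**
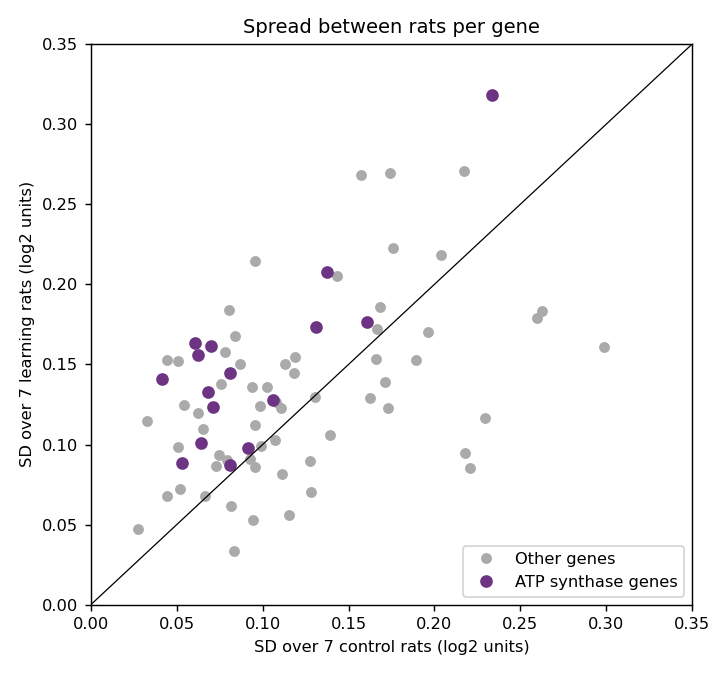
SD over the 7 learning rats (vertical axis, log2 units) against the SD over the 7 control rats (horizontal axis, log2 units) for each tested gene; the line marks equal spread. All 16 ATP synthase genes (purple) lie above the line, and the other genes (grey) lie on both sides of it.

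Many members were high or low together in single animals of either group, as the mean of each complex's centred values shows. Control rat 1 had the highest control value for 39 of the 78 genes, where it did so for 20.9% of all tested probe sets, and control rat 7 the lowest for 31 (39.7%, against 13.4%). Among learning rats, rat 6 was highest for 25 genes (32.1%, against 11.6%) and rat 3 lowest for 20 (25.6%, against 15.6%). The mean of all 78 centred genes ranged from -0.07 to 0.10 log2 units in control and from -0.06 to 0.07 in learning rats, so the ranges overlapped widely, with the highest control rat above every learning rat. Complex III showed the largest swing, from -0.14 in control rat 7 to 0.21 in control rat 1. Without control rat 1, 8 member probe sets (9.88%, against 13.1% of all tested) had an unadjusted p under 0.05 rather than 4, and without learning rat 3 also 8 (9.88%, against 13.4%), still with 0 called. The gap between 3′ and 5′ beta-actin probe sets, a measure of RNA integrity, was 1.32 ± 0.09 in control and 1.41 ± 0.11 in learning rats (difference 0.09, exact two-sided permutation p = 0.131). With that gap as a covariate, added after the values were seen, 0 members were called. Ndufs8 then differed by -0.26, Ndufaf3 by -0.13 and Cox6b1 by -0.13, each smaller than in the main fit. Cox7a2l at -0.12 and Ndufaf4 at -0.10 were larger in size. The part of RNA integrity in the differences was not tested.

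**Figure D4:**
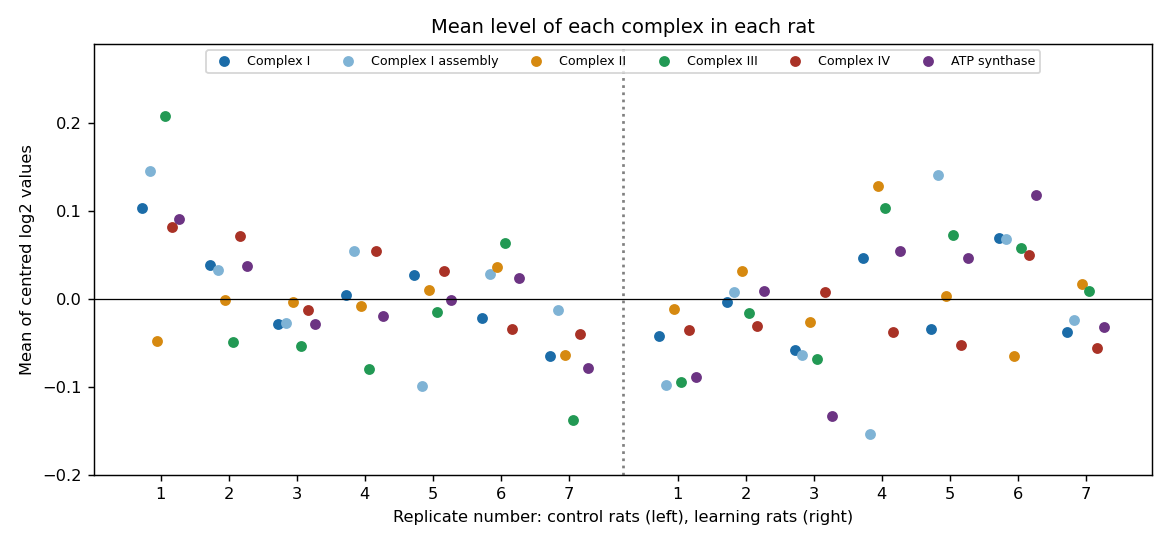
Mean of the centred log2 values of each complex (points, coloured by complex; each gene centred on its mean over the 14 rats) in each control rat (left) and learning rat (right). Values of both groups spread around 0, with control rat 1 at 0.21 for complex III.

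Genes of the same pathway outside the rule were followed in lists, and 0 members of any list were called in limma. Of 10 further complex I assembly factors tested, 2 were higher and 8 lower, with a median of -0.06 log2 units; Lyrm2 differed by 0.39 ± 0.13 and Acad9 by -0.13 ± 0.06 (adjusted p = 0.251 and 0.347). Of 27 assembly factors of complexes II to V, 14 were higher and 13 lower, with a median of 0.0035. There Lrpprc, which stabilises mitochondrial messenger RNA, differed by 0.26 ± 0.10, and Sdhaf2, which attaches flavin to Sdha, by -0.29 ± 0.10 (adjusted p = 0.289 and 0.241).

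Of the 12 regulators of mitochondrial biogenesis on the array 7 reached the minimum, 1 higher and 6 lower, with a median of -0.15 log2 units. Tfam, which packages mitochondrial DNA and starts its transcription, differed by -0.27 ± 0.21, and Mterf3, which represses that transcription, by -0.25 ± 0.07 (adjusted p = 0.597 and 0.233). The higher gene was Mterf1, by 0.10 ± 0.04 (adjusted p = 0.349, limma). Ppargc1a and Yy1 were below the minimum, at means of 2.56 and 2.10 in control rats. Of 15 citric acid cycle genes 6 were higher and 9 lower, with a median of -0.03. The partner subunits of pyruvate dehydrogenase went opposite ways: Pdha1 by 0.23 ± 0.08 and Pdhb by -0.20 ± 0.07 (adjusted p = 0.241 and 0.280). The 12 genes that exchange ATP and phosphate had a median of 0.0071, with 0 at an unadjusted p under 0.05, against 13.1% of all tested probe sets. Of 16 import and dynamics genes, 8 were higher and 8 lower, and 4 were higher at an unadjusted p under 0.05 in limma, against 6.43% of all tested probe sets: Mfn1 (fusion) by 0.20, Dnm1l (fission) by 0.24, Phb2 (an inner-membrane scaffold) by 0.13 and Tomm70 (import) by 0.15.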

How the data were processed

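Each deposited value is the log2 expression of a probe set. The submitters' processing notes name GCRMA, with its version not given in the sources used here. It corrects background from probe sequence and compresses differences near background. Sample titles gave the groups and replicate numbers, and probe sets were named from the platform annotation. All 85 member gene IDs matched the GRCr8 gene table, and 0 symbols differed.

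Probe sets whose mean over 14 arrays reached 4 were fitted with limma 3.58.1 (lmFit, eBayes) in R 4.3.3, with no covariate and Benjamini-Hochberg adjustment at 0.05. This left 6479 of 15866 untested. The fit was tested on simulated data. Counts by gene use the probe set of highest mean. A centred value is a gene's value minus its mean over all arrays. Figures used matplotlib 3.10.9.

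Genes were named by a rule: per complex, the 4 of smallest p and the 2 of highest mean, all of complex II, the complex IV isoforms, members at an unadjusted p under 0.01 or with separate groups, and the 3 most variable. Other genes were named after their values were seen. The members and lists were chosen with earlier results of these data known. Alternatives covered the filter, normalization, prior, array weights, replicate block, probe set choice, single arrays left out and 3 covariates.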

Additional observations from a re-analysis of the deposited data

Results flagged for a closer look

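In 10 of the 82 groups of 7 rats examined, 1 rat stood apart by more than Dixon's 95% critical value. That value is for the gap as a share of the group's range. The groups were those of the 35 tested named genes and of the means of 6 complexes. Chance alone gives about 5% of groups when the groups are independent. These groups come from the same arrays, and some genes, such as Ndufaf4, were named for their large SD. The 5% is therefore no background for the 10, and no share over all tested probe sets is given. Whether such values are more frequent here than elsewhere was not tested. Control rat 1 was the high value in 3 of the 10 groups. It had Uqcrc1 at 10.70 (the other controls 10.35 to 10.49), Uqcr11 at 12.46 (others 12.13 to 12.23) and Ndufb9 at 12.12 (others 11.61 to 11.82). Control rat 2 had Cox5a at 6.32 (others 5.61 to 5.87) and Ndufa1 at 11.76 (others 11.91 to 12.00), and control rat 6 had Sdhc at 9.65 (others 9.16 to 9.29).

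Among learning rats, Ndufaf3 was at 8.11 in rat 3 (the others 8.38 to 8.51), Ndufaf4 at 6.77 in rat 4 (others 7.43 to 7.58), Ndufaf7 at 5.89 in rat 5 (others 5.53 to 5.67) and Atp5mc3 at 12.57 in rat 1 (others 12.73 to 12.84). These came from 4 different animals.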

How the results depend on the processing

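The 0 calls among members held under all 27 alternatives. Over all probe sets the count was 0, or 1 in limma without control rat 6, learning rat 1 or learning rat 4. Members at an unadjusted p under 0.05 numbered 4, and 3 to 8 when each array was left out (3.70% to 9.88%, against 10.06% to 14.67% of all tested). They numbered 9 without the filter (10%, against 9.30% of all tested) and 9 with array weights (11.1%, against 14.96%). The replicate block gave 6 (7.41%, against 14.2% of all tested). Nothing in the labels pairs rats of the same number, and the values do not settle it: correlations of same-numbered deviations ran from -0.278 to 0.264, with 4 of 7 over 0.1, and 4 of 7 controls were closest to their own number. Of the 35 named tested genes 24 kept their sign throughout, and 0 passed the threshold in any alternative. Signs turned in small differences only. Quantile normalization gave Cox4i1 -0.0043 and Cox6c -0.0022, median centring Atp5mc3 0.0014 and Atp5mk 0.00065, and array weights Atp5mk 0.014, Cox8a -0.013 and Ndufaf4 0.0026. The beta-actin covariate gave Atp5mk 0.046 and Ndufaf7 -0.0083, and the CA1 covariate Cox6c -0.0071, Cox8a -0.078, Uqcr10 0.0027 and Uqcrh -0.025; these covariates were chosen after seeing the data. Without single arrays the ranges that cross 0 were Atp5mc3 -0.023 to 0.025, Atp5mk -0.035 to 0.015, Cox4i1 -0.00074 to 0.066, Cox6c -0.012 to 0.031, Cox8a -0.022 to 0.027, Ndufaf4 -0.053 to 0.086, Ndufaf7 -0.031 to 0.030, Uqcr10 -0.034 to 0.023, Uqcr11 -0.0072 to 0.070, Uqcrfs1 -0.028 to 0.094 and Uqcrh -0.029 to 0.037. The medians of complex I, its assembly factors, complex III and ATP synthase also crossed 0 without single arrays, from -0.027 to 0.014, -0.053 to 0.030, -0.013 to 0.040 and -0.021 to 0.031. The cause was not tested.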
